A study of Mus musculus with 6 samples.

Results

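The 10 genes described are the ligands Tgfb1, Tgfb2 and Tgfb3, the latent ligand binding protein Ltbp1, the receptors Tgfbr1 and Tgfbr2, the intracellular mediators Smad3, Smad7 and Skil, and the target gene Tgfbi. They were taken by symbol from the platform annotation, which gave 26 probes. A floor for signal above background lay at an intensity of 127. Of the 26 probes, 15 passed it on at least 3 of the 6 arrays, and 9 of the 10 genes were thereby among the 10405 genes tested. Smad7 was the gene left untested.

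The cells were CD11b+Ly6G- cells, a myeloid gate of macrophages and monocytes, sorted from hearts of ICR mice, an outbred strain, with both sexes in the material. All animals had the left anterior descending coronary artery tied off, at postnatal day 1 (P1) or postnatal day 14 (P14), and cells were taken 3 days later. Total RNA was read on Illumina bead arrays, 3 for each age. Both ages were infarcted and no uninjured heart is among these samples, so each difference below is between ages after injury. The labels do not say whether arrays came from separate animals or from pools, so p-values measure the spread between these arrays, which may be technical.

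TGF-beta is secreted in a latent form, bound to its own propeptide and often to a latent TGF-beta binding protein in the matrix, and has to be released before it acts. Free ligand binds the receptor kinase TGFBR2, which recruits and activates TGFBR1, which in turn phosphorylates SMAD2 and SMAD3 to enter the nucleus with SMAD4. SMAD7 blocks the receptor and SnoN, the product of Skil, represses SMAD complexes on DNA, and both genes are themselves induced by the signal. In the injured heart TGF-beta is known for restraining inflammation and for driving fibroblasts to make scar matrix, and macrophages are among its sources.

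At P1 the cells held more transcript of the ligand gene Tgfb1 than at P14, more of the receptor gene Tgfbr1 on its brightest probe only, and less of the target gene Tgfbi, the repressor gene Skil and the ligand gene Tgfb3. A dimmer Tgfbr1 probe lay the other way (-0.44), and with the mean of both the log2 difference was 0.0046 (limma adjusted p = 0.979). Differences were largest for Tgfbi, 1.80-fold lower at P1, and Skil, 1.76-fold lower, while Tgfb1, Tgfbr1 and Tgfb3 differed by 1.31-fold to 1.38-fold. Of the 9 genes tested, 2 were higher and 3 lower at an adjusted p under 0.05, and those 5 are the ones whose arrays did not overlap between ages. Over all genes, 20.2% passed the same threshold, 10.5% higher and 9.73% lower at P1, and the arrays of the ages did not overlap in 38.8%. The median absolute log2 difference was 0.39 for the 9 genes and 0.14 for all 10405. The genes were chosen with earlier results of these data known, so this comparison is a description only. Adjusted p-values are from limma with Benjamini-Hochberg adjustment over all genes tested, and log2 differences are P1 minus P14 with limma's standard error and n = 3 arrays per age. In sorted bulk cells, fewer cells of a type and less RNA per cell cannot be told apart.

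**Figure D1:**
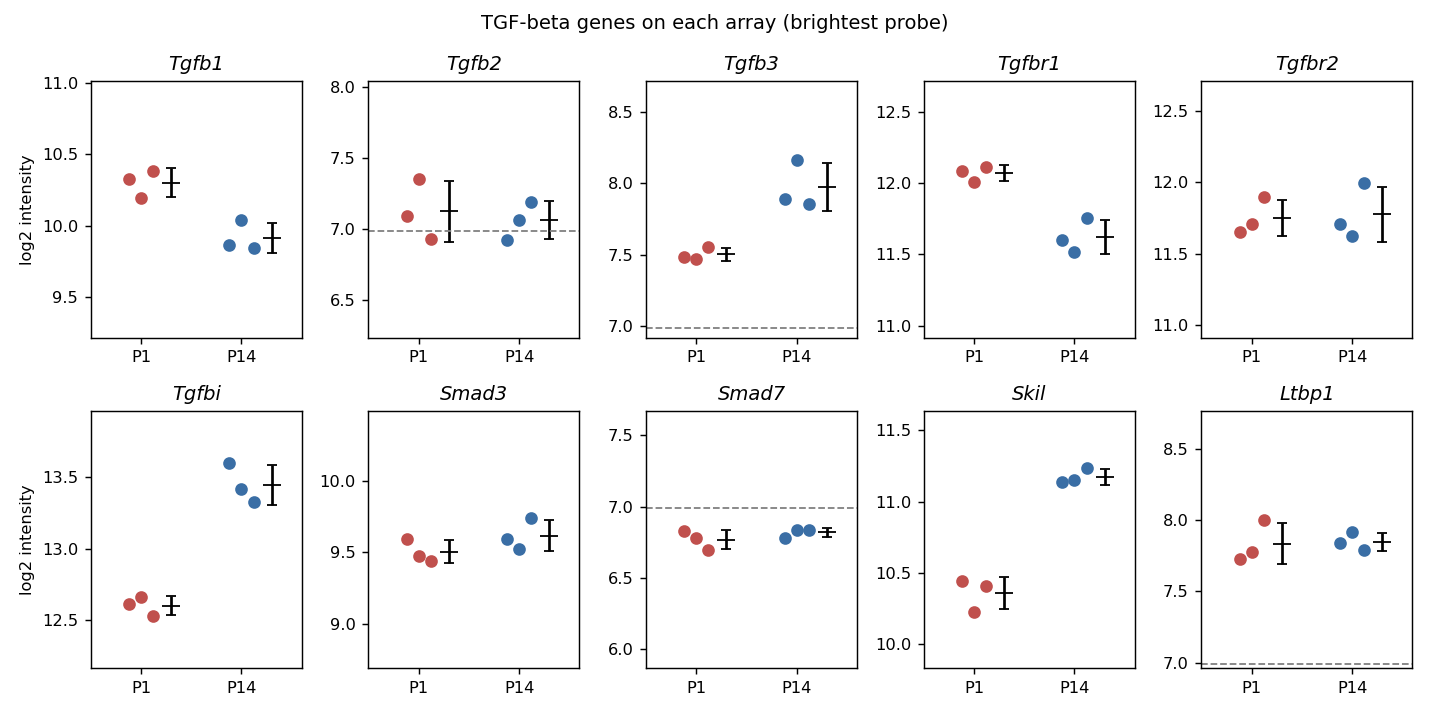
Log2 intensity of the brightest probe of each of the 10 genes (y axis, each panel spanning the same log2 range) on the 3 P1 arrays (red) and the 3 P14 arrays (blue), with the mean and SD of each age beside the points. The floor is a dashed line, seen only in panels whose range reaches it. Red and blue points are apart for Tgfb1, Tgfb3, Tgfbr1, Tgfbi and Skil, Smad7 lies below the floor on all 6 arrays, and Tgfb2 lies around it.

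Promoter sequence was available in the RefSeq table (GRCm38.p6) for 3 of the 5 genes that passed, Tgfb1, Tgfbr1 and Tgfbi, and is shown for these. Each run gives the 250 bases before the annotated start, 5′ to 3′ on the plus strand. Capitals mark the letters CAGAC or their reverse complement GTCTG, the short SMAD-binding element. The windows are chr7:25686752-25687001 for Tgfb1, chr4:47352972-47353221 for Tgfbr1 and chr13:56609336-56609585 for Tgfbi.
Tgfb1: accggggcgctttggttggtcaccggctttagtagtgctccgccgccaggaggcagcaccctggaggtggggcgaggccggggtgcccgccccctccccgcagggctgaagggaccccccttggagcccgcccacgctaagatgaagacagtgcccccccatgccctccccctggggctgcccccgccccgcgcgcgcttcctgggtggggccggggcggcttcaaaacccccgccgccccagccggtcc
Tgfbr1: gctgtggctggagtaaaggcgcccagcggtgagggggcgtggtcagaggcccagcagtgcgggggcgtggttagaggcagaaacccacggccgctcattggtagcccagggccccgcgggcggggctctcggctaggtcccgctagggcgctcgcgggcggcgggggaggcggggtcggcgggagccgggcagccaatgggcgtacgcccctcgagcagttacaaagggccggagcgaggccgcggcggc
Tgfbi: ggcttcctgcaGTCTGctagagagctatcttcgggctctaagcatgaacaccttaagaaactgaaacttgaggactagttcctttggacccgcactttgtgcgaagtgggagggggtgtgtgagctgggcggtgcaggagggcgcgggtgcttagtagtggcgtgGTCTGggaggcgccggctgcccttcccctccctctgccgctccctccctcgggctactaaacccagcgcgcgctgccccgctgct

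The search covered both strands of these 250 bases and of the 50 that follow the start. Tgfbi held 2 matches, at positions -239 and -85 from the start, and Tgfb1 and this start of Tgfbr1 held 0. A further annotated start of Tgfbr1 held 1 match, at -203. The element is common: 49.6% of the 32851 promoters in the table hold at least 1. The AP-1 site TGACTCA, searched in the same way, had 0 matches in all of these windows and is held by 5.20% of promoters. GC content of the 300 bases was 77.0% for Tgfb1, 74.7% for Tgfbr1 and 63.3% for Tgfbi. Matches are descriptions of letters, not evidence of binding.

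Among the ligands, Tgfb1, the main form made by leukocytes, was read by 1 probe (gene at chr7:25687002-25705077). Its intensity was 1285, 1170 and 1338 on P1 replicates 1, 2 and 3 and 934, 1050 and 917 on P14 replicates 1, 2 and 3. Every P1 array was above every P14 array, with the closest approach between P1 replicate 2 and P14 replicate 2. The log2 difference was 0.39 ± 0.0845 (SE, n = 3 per age, limma adjusted p = 0.0178), or 1.31-fold. That call was lost without P1 replicate 3 (0.35, adjusted p = 0.0689) and without P14 replicate 1 (0.36, adjusted p = 0.0599).

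Tgfb3, a ligand isoform prominent in mesenchymal tissue, moved the other way (gene at chr12:86056743-86079041). Its single probe was dim, with intensities of 179, 177 and 188 on the P1 arrays and 238, 287 and 232 on the P14 arrays. The P1 arrays lay within a narrow band below all P14 arrays, and P14 replicate 2 was the highest. The log2 difference was -0.47 ± 0.0930 (SE, n = 3 per age, limma adjusted p = 0.0132), 1.38-fold lower at P1. Background was left in the deposited values, and after normexp background correction the log2 difference was -0.78, or 1.72-fold lower (adjusted p = 0.00997).

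Tgfb2, the third ligand, stayed around the floor (gene at chr1:186622787-186709697). It exceeded the floor on 4 arrays, 2 of each age, with intensities of 136, 163 and 122 at P1 and 122, 134 and 146 at P14. The ages overlapped, and the log2 difference of 0.06 had a 95% interval from -0.21 to 0.34 (limma adjusted p = 0.760).

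Ltbp1 encodes a matrix protein that tethers latent ligand (gene at chr17:75005480-75392512). Of its 7 probes, 5 were below the floor on every array and 1 exceeded it on only 2. The tested probe read 212, 219 and 256 at P1 and 229, 242 and 222 at P14. These ranges overlapped, with a log2 difference of -0.01 and a 95% interval from -0.22 to 0.19 (limma adjusted p = 0.935).

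Of the receptors, Tgfbr1, the signalling kinase, was brighter at P1 on its brightest probe (gene at chr4:47353222-47414926). Intensities were 4355, 4115 and 4440 at P1 and 3110, 2930 and 3451 at P14. No P14 array reached the P1 range, and the log2 difference was 0.45 ± 0.0808 (SE, n = 3 per age, limma adjusted p = 0.00967), 1.36-fold. A second, dim probe of Tgfbr1 lay the other way, at 241, 191 and 249 on the P1 arrays against 263, 332 and 324 on the P14 arrays. Its log2 difference was -0.44 ± 0.128 (adjusted p = 0.0527 over all probes above the floor), with no overlap between ages. The other 2 probes of the gene passed the floor on 1 and on 0 arrays.

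The gap between these 2 Tgfbr1 probes was itself taken on each array. In log2 units the bright probe exceeded the dim one by 4.26 ± 0.152 at P1 and by 3.37 ± 0.215 at P14 (SD, n = 3 each), without overlap. An exact two-sided permutation test gave p = 0.10, the smallest that 3 arrays against 3 allow, and 0.175 after adjustment over 7 probe pairs compared. The call of Tgfbr1 therefore rests on the bright probe. Both probes carry the same transcript accession in the annotation.

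Tgfbr2, the ligand-binding receptor, was bright at both ages (gene at chr9:116087695-116175363). Its tested probe read 3220, 3353 and 3809 at P1 and 3338, 3163 and 4079 at P14. The ages overlapped, replicate 3 was the highest array of each age, and the log2 difference was -0.02 with a 95% interval from -0.28 to 0.24 (limma adjusted p = 0.920). Of its 3 other probes, 1 was above the floor on all 6 arrays, with a log2 difference of -0.16 (adjusted p = 0.147 over probes), and 1 on 3 arrays, with 0.07 (adjusted p = 0.597). The first of these read 153, 155 and 147 at P1 and 173, 160 and 175 at P14, without overlap. Over the 15 probes of the 9 genes, 7 passed an adjusted p of 0.05, against 16.7% of all probes above the floor.

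**Figure D2:**
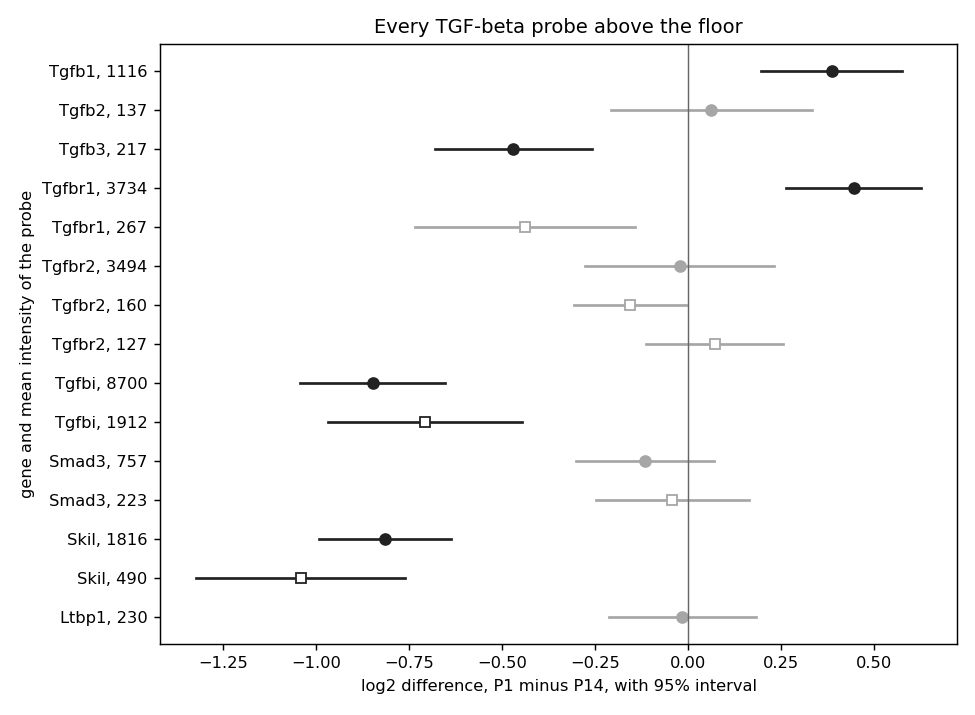
Log2 difference, P1 minus P14, of each of the 15 probes above the floor (x axis) with limma's 95% interval, by gene and mean intensity of the probe (y axis). Filled circles are the probes tested for the gene, open squares the others, and black marks those with an adjusted p under 0.05 over all probes above the floor. The 2 probes of Tgfbi and the 2 of Skil lie on the same side, at -0.85 and -0.71 and at -0.81 and -1.04, whereas the 2 of Tgfbr1 lie on opposite sides.

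Smad3, the receptor-regulated mediator, did not pass on either of its 2 probes (gene at chr9:63646766-63757994). Intensities of the tested probe were 773, 711 and 695 at P1 and 772, 735 and 854 at P14. The ages overlapped, and the log2 difference was -0.11 with a 95% interval from -0.30 to 0.07 (limma adjusted p = 0.375). The dimmer probe had a log2 difference of -0.04 (adjusted p = 0.804 over probes). Smad7, the inhibitory SMAD, had a single probe between 104 and 115 on all 6 arrays, below the floor, so no difference could be measured for it.

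Skil, the gene of the repressor SnoN, was lower at P1 on both probes above the floor (gene at chr3:31095058-31122923). The tested probe read 1394, 1201 and 1358 at P1 and 2251, 2272 and 2418 at P14. All P14 arrays stood far above the P1 range, and the log2 difference was -0.81 ± 0.0794 (SE, n = 3 per age, limma adjusted p = 0.00152), 1.76-fold lower at P1. The second probe read 346, 287 and 327 at P1 and 576, 630 and 778 at P14. Its log2 difference was -1.04 ± 0.122 (adjusted p = 0.00277 over probes), 2.06-fold lower. The gap between the 2 probes differed between ages by 0.23 in log2 units (exact two-sided permutation p = 0.10, 0.175 over the 7 pairs), and the third probe was below the floor on every array. The 2 probes were designed on different Skil transcript accessions. By absolute log2 difference the tested probe ranked 178 among 10405 genes.

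Tgfbi encodes a secreted matrix protein that binds collagen and integrins and is named for its induction by TGF-beta (gene at chr13:56609586-56639359). Its tested probe read 6248, 6460 and 5905 at P1 and 12397, 10927 and 10261 at P14. The lowest P14 array was well above the highest P1 array, and P14 replicate 1 was the highest of all. The log2 difference was -0.85 ± 0.0869 (SE, n = 3 per age, limma adjusted p = 0.00172), 1.80-fold lower at P1 and rank 151 of 10405 by absolute size. The second probe read 1474, 1516 and 1350 at P1 and 2471, 2675 and 1989 at P14, with a log2 difference of -0.71 ± 0.113 (adjusted p = 0.00735 over probes). Both probes put every P1 array below every P14 array.

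P14 replicate 3, which stands apart from the other P14 arrays on the second principal component, was the lowest P14 array for Tgfb1, Tgfb3 and Tgfbi and the highest for Tgfbr1, Tgfbr2, Smad3 and Skil. Without it the 5 calls held, 2 higher and 3 lower. The calls of Tgfb3, Tgfbi and Skil held under all 14 alternatives run, with log2 differences from -0.78 to -0.37, from -0.91 to -0.77 and from -0.93 to -0.75. The plot of alternatives shows these ranges beside those of the genes that did not pass.

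**Figure D3:**
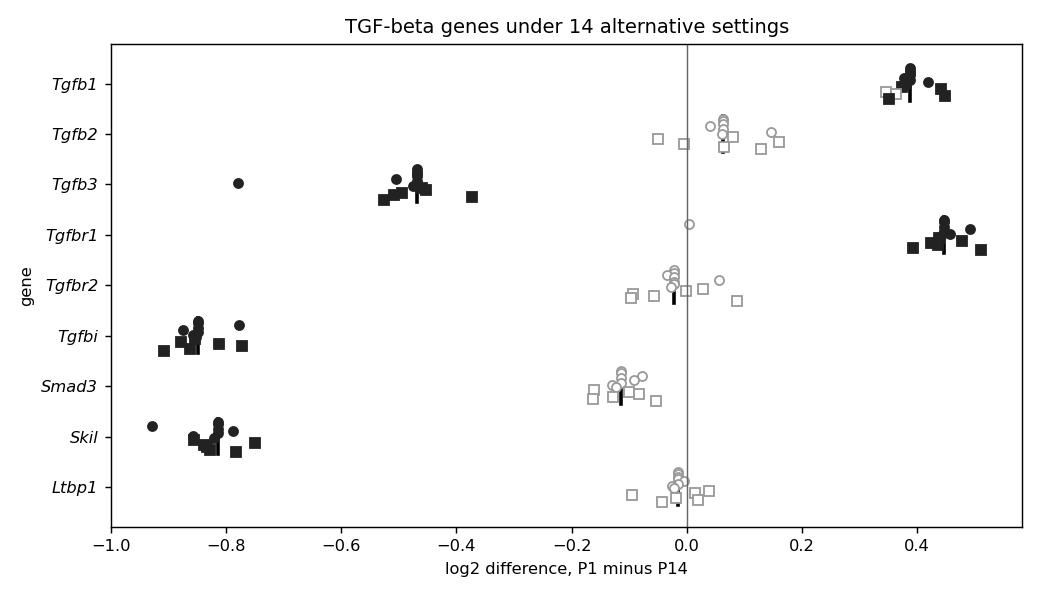
Log2 difference, P1 minus P14 (x axis), of the 9 genes tested (y axis) as reported (vertical bar) and under 14 alternatives (13 for Tgfb2), with circles for settings that use all 6 arrays and squares for leaving out 1 array. Filled marks have an adjusted p under 0.05. Tgfb3, Tgfbi and Skil are filled throughout, Tgfb1 has 2 open squares, and Tgfbr1 has 1 open circle near 0.

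The sorted material was checked against markers. Over all genes tested, 10.5% were called higher and 9.73% lower at P1. All 11 macrophage and monocyte markers with a named probe passed the floor, and their summed intensity was 72127 to 72758 at P1 and 65803 to 72812 at P14. Of these 1 was higher at P1, Csf1r, and 2 were lower, Ccr2 (log2 difference -0.47) and Ly6c1 (-1.45), in the direction of Tgfbi and Skil. The others were not called, and the median log2 difference of the list was -0.02. Of 8 neutrophil markers tested, 7 were higher at P1, with a summed intensity of 14444 to 21410 against 5447 to 8779. Of 6 cardiomyocyte markers 4 were higher, at 1809 to 4277 against 1445 to 1524. Fibroblast markers, the cells in which Tgfb3 and matrix targets are also made, overlapped at 2852 to 4329 and 2858 to 3101, with 2 of 8 higher, and Postn was below the floor on all arrays. Platelet markers, a further source of Tgfb1, overlapped at 4209 to 5035 and 3529 to 5396, with 0 of 3 called by limma. Of the 9 marker lists only the neutrophil and cardiomyocyte ones separated the ages in their sums. The part of these markers, Ccr2 and Ly6c1 included, in the differences of the 10 genes was not tested.

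Around the 10 genes, 111 others of the pathway had a named probe and 82 were tested. Of these 15 were higher and 13 lower at P1, 34.1% called against 20.2% of all genes, with a median log2 difference of 0.02 against 0.0084. The share called was uneven over the lists, from 9.09% in the activin, BMP and GDF branch and 12.5% in receptor partners to 66.7% in latency and activation. Without P1 replicate 3 the pathway counts were 6 and 6, without P14 replicate 1 they were 7 and 6, and without P14 replicate 2 they were 8 and 9, and counts over all genes fell too, to 516 and 535, 619 and 616, and 585 and 634. The lists were written from general knowledge of the pathway, and the members and lists were chosen with earlier results of these data known.

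Genes of ligand latency and activation differed in both directions. Of 18 tested, 5 were higher and 7 lower at P1, 66.7% called against 20.2% of all genes. Nrros, whose product holds latent TGF-beta on the surface of myeloid cells, read 4658, 4157 and 3958 at P1 and 3103, 2735 and 2743 at P14. Its arrays did not overlap, and it was 1.49-fold higher (log2 difference 0.57 ± 0.0885, limma adjusted p = 0.00556). Mmp9, a gelatinase that can cleave latent TGF-beta, was 1.92-fold higher (0.94 ± 0.175, adjusted p = 0.0105). Mmp9 was highest on P1 replicate 3 (960), as was the summed intensity of the neutrophil markers (21410). The part of neutrophils in the Mmp9 values was not tested. Emilin1, which restrains ligand processing, Mmp2, a second gelatinase, and Ltbp3, a latent ligand binding protein, were 1.46-fold, 1.49-fold and 1.22-fold higher.

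Among the 7 lower genes, Thbs1, thrombospondin, an activator of latent TGF-beta, read 322, 242 and 278 at P1 and 492, 529 and 547 at P14. That was 1.87-fold lower without overlap (-0.91 ± 0.108, limma adjusted p = 0.00255). Tgm2, a transglutaminase that crosslinks latent complexes to matrix, read 5687, 6072 and 4980 at P1 and 10134, 9697 and 9609 at P14, 1.76-fold lower (-0.82 ± 0.0862, adjusted p = 0.00185). Mmp14, a membrane-bound metalloproteinase, was 1.61-fold lower (-0.69 ± 0.137, adjusted p = 0.0135). Leaving out P1 replicate 3 ended the call of Mmp14 (adjusted p = 0.0510). The urokinase gene Plau, its receptor gene Plaur and the integrin genes Itgb5 and Itgb1 were 1.45-fold, 1.40-fold, 1.40-fold and 1.33-fold lower. Furin, the protease that cuts the propeptide, had a log2 difference of 0.03 (adjusted p = 0.856), and the integrin gene Itgav one of 0.11 (adjusted p = 0.735). Nrros, Emilin1, Mmp2, Ltbp3, Plau, Plaur, Itgb5, Itgb1, Furin and Itgav are named outside the naming rule, after their values were seen. Whether their results hold under the alternatives was not examined.

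Of 16 receptor partners and regulators tested, 0 were higher and 2 lower, 12.5% called against 20.2% of all genes. Their median log2 difference was 0.03. Usp4, a deubiquitinase of TGFBR1, was 1.40-fold lower at P1 (-0.48 ± 0.103, limma adjusted p = 0.0166). Nedd4l, a ubiquitin ligase of activated SMADs, was 1.29-fold lower (-0.37 ± 0.0866, adjusted p = 0.0225). The call of Nedd4l was lost without any 1 of 4 arrays, with the highest adjusted p, 0.0812, without P1 replicate 3. The call of Usp4 was lost without P1 replicate 3 (0.0576), without P14 replicate 1 (0.0573) and when its probes were averaged (0.0510). The co-receptor genes Tgfbr3 and Eng, chosen after their values were seen, had log2 differences of 0.12 (adjusted p = 0.439) and 0.02 (adjusted p = 0.940).

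Among SMADs and their nuclear partners, 4 of 17 were higher and 2 lower, 35.3% called against 20.2% of all genes. None of the 4 SMAD genes tested in this list, Smad1, Smad2, Smad5 and Smad6, passed (lowest limma adjusted p 0.0956, for Smad2 at -0.22). Ski, the paralog of Skil and likewise a SMAD repressor, read 622, 589 and 587 at P1 and 506, 465 and 528 at P14. It was 1.20-fold higher at P1 without overlap (0.26 ± 0.0737, adjusted p = 0.0412), while Skil was lower. Ppm1a, a SMAD phosphatase, was 1.39-fold higher (adjusted p = 0.0231), Ep300, a coactivator, 1.30-fold (adjusted p = 0.0243) and Sp1, a partner transcription factor, 1.26-fold (adjusted p = 0.0412). Zeb2, a SMAD-binding repressor, was 1.43-fold lower (-0.52 ± 0.0896, adjusted p = 0.00819), and Runx1 was 1.22-fold lower (adjusted p = 0.0328). Averaged over probes, Zeb2 (-0.19, adjusted p = 0.107), Ppm1a, Ep300 and Sp1 lost their calls, and the last 3 also lost them without any 1 of 3, 4 and 5 arrays. Ski and Runx1 are named after their values were seen, and whether their calls hold under the alternatives was not examined.

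**Figure D4:**
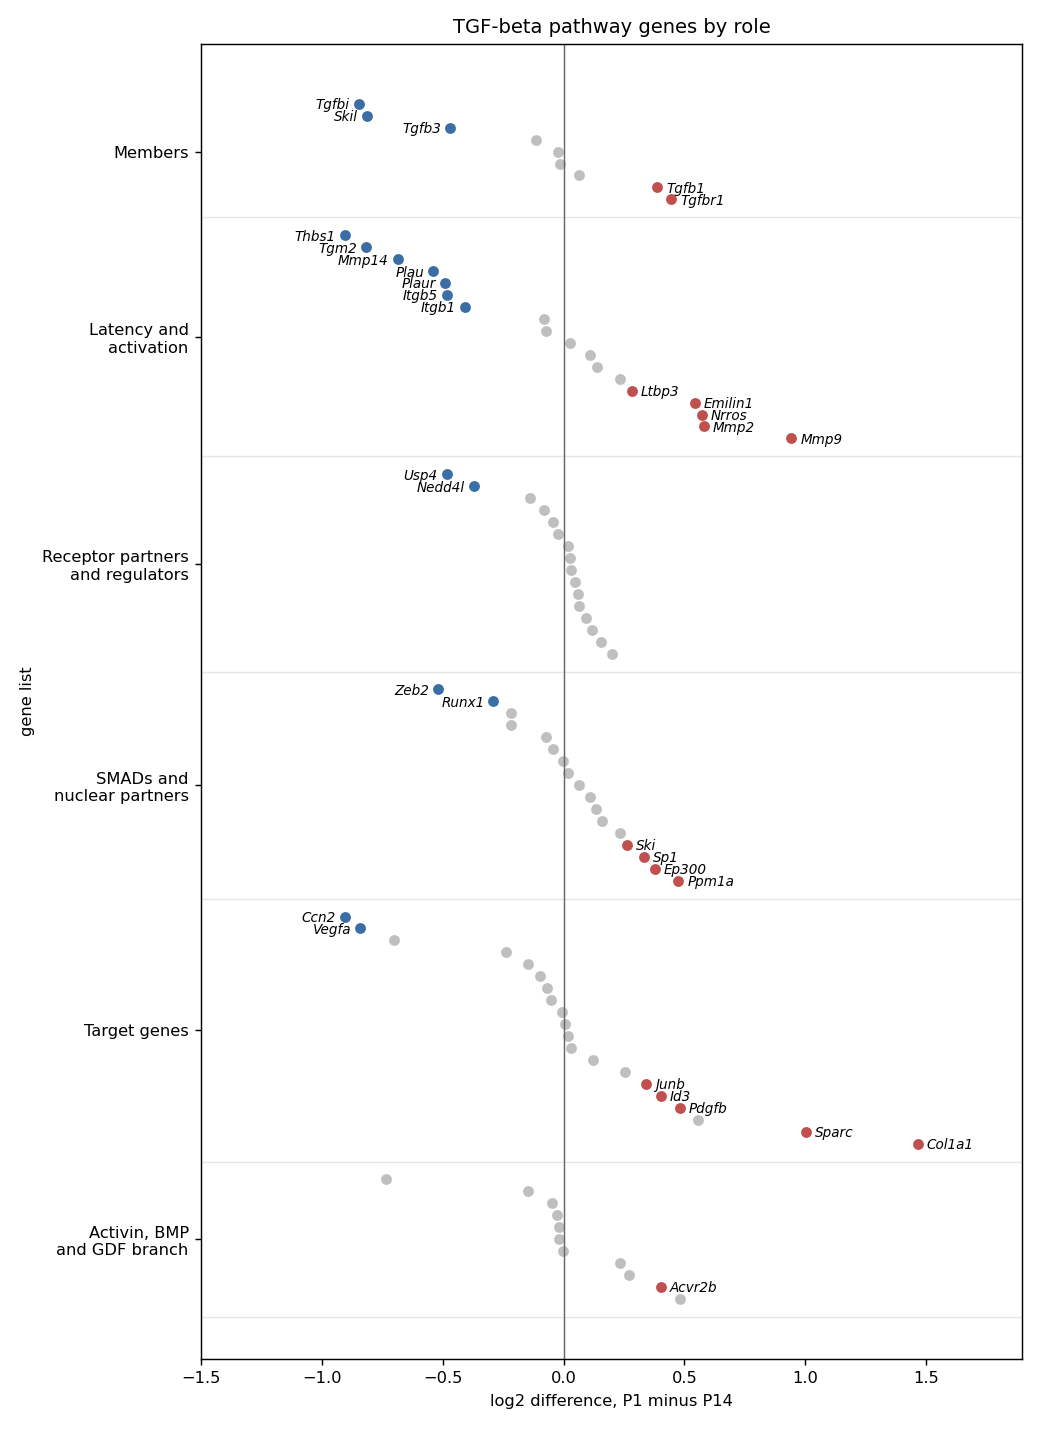
Log2 difference, P1 minus P14 (x axis), of the 9 tested genes and of the 82 other pathway genes, 1 point a gene, grouped by list (y axis). Red and named points are higher and blue and named points lower at P1 at an adjusted p under 0.05, and grey points did not pass. Latency and activation genes spread to both sides, from Thbs1 at -0.91 to Mmp9 at 0.94, while most receptor partners lie near 0.

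Target genes known from many cell types split as well, with 5 of 20 higher and 2 lower and a median of 0.01. Col1a1, a fibrillar collagen chain, read 356, 684 and 427 at P1 and 167, 169 and 175 at P14, 2.76-fold higher (1.47 ± 0.208, limma adjusted p = 0.00436). Correcting the background with normexp made this 4.46-fold. Sparc, a collagen-binding matrix protein, read 915, 1828 and 1281 at P1 and 692, 730 and 525 at P14, 2.01-fold higher (adjusted p = 0.0233). Both were highest on P1 replicate 2, as were the marker sums of fibroblasts (4329), cardiomyocytes (4277), endothelium (2695) and smooth muscle (3227), and Col1a1 is also one of the fibroblast markers. The part of other cells in these values was not tested. The collagen genes Col1a2 and Col3a1, named after their values were seen, had log2 differences of 0.12 (adjusted p = 0.247) and -0.05 (adjusted p = 0.688). Averaging over its probes gave Sparc a log2 difference of 0.52 (adjusted p = 0.10), and its call was also lost with no filter and without any 1 of 3 arrays.

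On the lower side, Vegfa, the angiogenic factor, read 1947, 1887 and 1828 at P1 and 3574, 3008 and 3593 at P14. That was 1.79-fold lower without overlap (-0.84 ± 0.0866, limma adjusted p = 0.00172). Ccn2, a matricellular gene widely used as a readout of TGF-beta, read 216, 360 and 384 at P1 and 583, 733 and 461 at P14, 1.88-fold lower (-0.91 ± 0.238, adjusted p = 0.0331). Its call was lost in 3 of 8 alternatives with all arrays and without any 1 of 4 arrays, up to an adjusted p of 0.101 without P14 replicate 2. Pdgfb, a growth factor for mesenchymal cells, the inhibitor gene Id3 and the AP-1 gene Junb, also named after their values were seen, were 1.40-fold, 1.32-fold and 1.27-fold higher at P1. The target list does not give the direction in which TGF-beta moves each gene, so its counts do not measure signalling.

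In the activin, BMP and GDF branch, 11 of the 24 genes with a named probe were tested. Of these 1 was higher and 0 lower, 9.09% called against 20.2% of all genes. Acvr2b, an activin receptor, read 405, 413 and 444 at P1 and 268, 321 and 374 at P14, 1.32-fold higher (0.40 ± 0.119, limma adjusted p = 0.0481). The arrays did not overlap, but the call was lost in 4 of 8 alternatives with all arrays and without any 1 of 5 arrays, up to an adjusted p of 0.144 without P1 replicate 3. The activin subunit gene Inhba, named after its values were seen, had a log2 difference of -0.02 (adjusted p = 0.980).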

How the data were processed

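The authors deposited 1 linear intensity per probe and array, for 6 arrays. All 6 columns held the same sorted intensities within 0.0068 on the log2 scale, so the deposited values had been quantile-normalized, and the lowest was 96.7, so background had not been subtracted. The labels and the file name no software. A table of scanner signals was not used, since its 24 columns carry chip positions that match no sample label. Groups come from the sample titles.

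Of 45281 probes, 34885 had 1 gene symbol in the platform annotation, 18 several and 10378 none, and 34807 were found by Entrez identifier in RefSeq (GRCm38.p6), with 0 symbols to update. Log2 of the deposited intensities was taken. The floor was the most frequent value (112) plus 3 SD of the values mirrored below it (127), and a probe was kept when above it on at least 3 arrays, which left 18887 probes, 18705 to 18722 above the floor per array. The brightest kept probe by mean log2 stood for its gene, and 10405 genes were tested. The ages were compared by limma 3.58.1 (lmFit, eBayes; R 4.3.3) in a two-sided test with age as the only term, and p-values were adjusted after Benjamini-Hochberg over all genes, with a threshold of 0.05. The fit code was checked on simulated data with independent errors, a setting that does not bear on dependence between these arrays. Alternatives were no filter, a floor on all arrays, the mean of a gene's probes, eBayes with trend and robust, weights per array, a replicate block, normexp (offset 16), cyclic loess, and each array left out with the tested probes kept. The number of arrays limits the precision.

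The members and lists were chosen with earlier results of these data known. All 10 members are named, and from each pathway list up to 4 genes with the largest absolute log2 difference past the threshold. Genes named outside the rule are said to be so, and their values under the alternatives were not examined.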

Additional observations from a re-analysis of the deposited data

How the results depend on the processing

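Over 14 alternatives, 8 of them with all arrays, the count of lower members stayed at 3. Higher members were 1 in place of 2 with the mean of the kept probes, and 1 to 2 without single arrays. Higher pathway genes were 6 to 12 without single arrays, against 15, and lower ones 6 to 11, against 13. Of all genes, 516 to 919 were higher and 535 to 892 lower without single arrays, against 1092 and 1012, with the fewest without P1 replicate 3. Fewer arrays leave fewer degrees of freedom, and no other cause was tested. Of the tested members that did not pass, Smad3 kept its sign in all 14 alternatives (-0.16 to -0.054), and the others changed it. Tgfbr2 went to 0.056 with array weights and lay between -0.096 and 0.087 without single arrays. Without single arrays Ltbp1 lay between -0.096 and 0.038, and Tgfb2 between -0.050 and 0.16. Tgfb2 has no value under the filter on all 6 arrays. Of 15 pathway genes named by the rule, 10 lost the call in at least 1 alternative. The titles number replicates 1 to 3 at both ages. Deviations of same-numbered arrays correlated at 0.160, 0.0716 and 0.130, each array best with its own number, which is a hint from the data and not from the design, so they were not treated as pairs. With the replicate number as a block, 2 members were higher and 3 lower, and of all genes 1124 and 1065.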

Other observations

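Several pathway genes had sizeable differences that did not pass, and were chosen after their values were seen. Sphk1, a sphingosine kinase gene induced by TGF-beta in several cell types, had a log2 difference of -0.70 (limma adjusted p = 0.0579), and Fn1, fibronectin, one of 0.56 (adjusted p = 0.0752). Gdf3, a TGF-beta family ligand gene, read 244, 248 and 271 at P1 and 329, 279 and 824 at P14, with a log2 difference of -0.73 (adjusted p = 0.181). P14 replicate 3 carried most of that gap.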
